A study of Mus musculus with 6 samples.

Results

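In mouse liver, 9918 FXR peaks were found both in wild-type mice (WT) and in mice whose hepatocytes lack Bcl6 (LKO), and 300 of them were selected on their measured values as the shared sites that stood relatively highest in LKO. A WT peak and an LKO peak were paired where they overlapped by 1 bp or more. Within each ChIP library the median over the 9918 pairs was subtracted, so that 0 is the middle shared peak of that library on the log2 scale. The 300 members had the highest mean LKO minus mean WT value among the pairs in which both LKO values exceeded both WT values. Over all pairs, 29.8% met that direction, and the members all meet it because the rule asks for it. The selecting values are given below as a description, with no test.

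The series holds chromatin immunoprecipitation and sequencing of FXR from liver of both genotypes. There were 2 FXR ChIP libraries and 1 input library (chromatin with no antibody step) for each genotype. The mice were C57BL/6. WT animals were Bcl6 fl/fl, carrying loxP sites in the Bcl6 gene and no Cre. LKO animals were Alb-cre, Bcl6 fl/fl, so that both groups carry the floxed alleles and only LKO carries a Cre driven by albumin regulatory sequence, which removes Bcl6 from hepatocytes and not from the other cells of the liver. The age of the animals, and whether each library came from 1 animal, are not given in the sources used here. The paper labels its FXR binding tracks of control liver as male. The files hold tags at FXR peaks only, so that the loss of Bcl6 itself cannot be checked in them. Whole liver was used, so that a change in the share of a cell type and a change within cells cannot be told apart.

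FXR (Nr1h4) is a nuclear receptor activated by bile acids. Bound with RXR, it recognises IR1 elements, in which a pair of hormone-response hexamers face each other across 1 base. In hepatocytes it induces Nr0b2 (SHP) and bile salt exporters and lowers bile acid synthesis. BCL6 is a zinc-finger repressor of transcription that in liver is more abundant in males and holds down lipid and sex-biased genes. E-boxes, a different class of short element with the letters CANNTG, are read by basic helix-loop-helix proteins.

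The sequences of the members show the elements that the later counts refer to. All are given 5′ to 3′ on the plus strand from GRCm38.p6, the assembly behind the mm10 coordinates of the files. The first 8 come from the 20 members whose best IR1 departed at 1 of the 12 scored bases of AGGTCA, 1 free base and TGACCT, and were taken in order of the LKO minus WT difference. No member held an exact copy. Capitals mark the IR1.

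Cdc14b, chr13:64226967-64227017: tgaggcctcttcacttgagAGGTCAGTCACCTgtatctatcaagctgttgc
Hsd11b1, chr1:193251390-193251440: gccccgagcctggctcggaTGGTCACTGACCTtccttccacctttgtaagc
Micall2, chr5:139725000-139725050: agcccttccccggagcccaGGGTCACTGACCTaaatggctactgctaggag
Crnde, chr8:92180999-92181049: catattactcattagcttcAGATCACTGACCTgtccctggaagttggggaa
Serpina11, chr12:103985934-103985984: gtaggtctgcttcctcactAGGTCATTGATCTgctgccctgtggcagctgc
Cux2, chr5:122060304-122060354: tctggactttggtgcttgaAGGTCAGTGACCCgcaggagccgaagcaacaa
1700092K14Rik, chr11:114176758-114176808: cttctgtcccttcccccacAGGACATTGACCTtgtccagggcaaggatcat
Mirt1, chr19:53476921-53476971: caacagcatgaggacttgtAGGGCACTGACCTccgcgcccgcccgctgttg

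The peaks with the first, the third and the fourth largest difference are shown whole. Capitals mark the best IR1 of 2 mismatches or fewer, 13 letters long, and the E-box CAGCTG, 6 letters long. Cadm1 held both, Fam49a held an IR1 alone, and Asb2 held neither.

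Cadm1, chr9:47400566-47400770: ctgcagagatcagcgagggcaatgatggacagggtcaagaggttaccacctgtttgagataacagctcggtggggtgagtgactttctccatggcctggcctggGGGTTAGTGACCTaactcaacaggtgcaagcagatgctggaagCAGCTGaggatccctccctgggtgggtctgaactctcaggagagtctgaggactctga
Fam49a, chr12:12278522-12278726: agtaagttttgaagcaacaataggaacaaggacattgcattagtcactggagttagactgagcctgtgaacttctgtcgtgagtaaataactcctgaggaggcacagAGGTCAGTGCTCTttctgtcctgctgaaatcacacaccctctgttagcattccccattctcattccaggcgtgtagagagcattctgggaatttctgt
Asb2, chr12:103362009-103362213: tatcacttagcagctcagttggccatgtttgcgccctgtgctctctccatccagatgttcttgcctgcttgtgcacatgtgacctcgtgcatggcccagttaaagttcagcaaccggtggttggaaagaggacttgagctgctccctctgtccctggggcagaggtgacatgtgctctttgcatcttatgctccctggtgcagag

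A further set of 3 peaks carried 3 copies of CAGCTG each, which capitals mark, and no IR1 of 2 mismatches or fewer.

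Gm5294, chr5:138863710-138863914: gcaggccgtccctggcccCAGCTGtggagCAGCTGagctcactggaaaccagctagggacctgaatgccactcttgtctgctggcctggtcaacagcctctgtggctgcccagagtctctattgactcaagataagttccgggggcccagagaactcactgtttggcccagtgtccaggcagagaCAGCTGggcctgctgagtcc
Angptl2, chr2:33228653-33228857: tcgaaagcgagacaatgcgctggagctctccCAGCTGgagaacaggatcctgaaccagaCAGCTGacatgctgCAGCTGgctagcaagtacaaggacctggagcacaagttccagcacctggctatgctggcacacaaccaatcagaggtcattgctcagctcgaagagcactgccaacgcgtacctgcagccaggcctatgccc
Zfp354c, chr11:50721188-50721392: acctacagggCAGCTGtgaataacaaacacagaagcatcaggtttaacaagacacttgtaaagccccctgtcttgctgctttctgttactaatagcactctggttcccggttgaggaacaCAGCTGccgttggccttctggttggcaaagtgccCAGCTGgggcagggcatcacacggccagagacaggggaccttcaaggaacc

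The libraries differed in depth. The ChIP totals were 19022618 and 2883717 tags for the first and second WT library and 21287263 and 22637613 tags for the first and second LKO library, and the inputs held 6964271 (WT) and 6935001 (LKO). WT replicate 2 therefore stands apart. The tables give log2 values and not counts of tags at a peak, and tags were estimated from these values and the totals. At the members the median estimate was 4.42 tags in WT replicate 2, against 29.1 in its WT partner and 48.8 and 48.3 in the LKO libraries. In WT replicate 2, 164 of the 300 members (54.7%) fell under 5 estimated tags, against 7.08% of all pairs. The part this plays in the choice of members was not tested, and results that bear on it are given with and without those peaks.

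The members were weak FXR sites in WT and ordinary ones in LKO. Their median centred value was -1.14 in WT replicate 1 and -1.65 in WT replicate 2. In LKO it was 0.24 in replicate 1 and 0.33 in replicate 2. Thus 273 members lay below the middle shared peak in WT replicate 1 and 279 in WT replicate 2, while 108 did so in LKO replicate 1 and 96 in LKO replicate 2. By rank among the 9918 pairs, the median member stood at percentile 6.48 on the WT mean and at percentile 60.3 on the LKO mean. The median LKO minus WT difference was 1.55 on the log2 scale, a 2.92-fold relative rise, and the range was 1.27 to 3.55. Over all pairs the median was 0.03. A difference over 2 was reached by 45 members and a difference over 3 by 2.

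**Figure D1:**
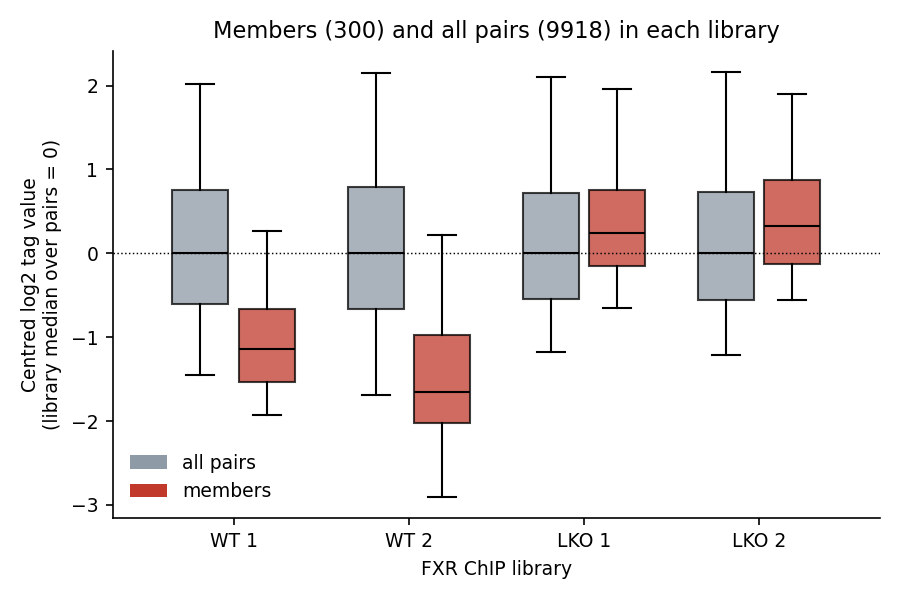
Centred log2 tag values of the 300 members (red) and of all 9918 pairs (grey) in each of the 4 FXR ChIP libraries, with boxes for the middle 50% of peaks, a line at the median and whiskers from the 5th to the 95th percentile. Members sit low in both WT libraries (medians -1.14 and -1.65) and slightly above the middle in both LKO libraries (0.24 and 0.33).

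Replicates of a genotype lay closer together than the genotypes did, as the rule in part requires. Each table was also fitted alone, by a method taken to draw low counts towards the mean of a peak. How far this narrows the spread between replicates was not tested. The median SD between the paired libraries was 0.39 in WT and 0.19 in LKO at the members. In 275 of the 300 the LKO minus WT difference exceeded 2 times the pooled replicate SD, against 2041 of all 9918 pairs. The members were chosen on that difference, so this count follows in large part from the rule and is a description only. The gap between the lower LKO and the higher WT value had a median of 1.12, passed 1 in 181 members and was under 0.1 in 3. WT replicate 2 lay below WT replicate 1 in 214 of the 300 members (71.3%), against 48.7% of all pairs. LKO replicate 2 lay below LKO replicate 1 in 135 members (45%), against 47.8% of all pairs. So the shallow WT library tended to lie under its partner at these sites, and the LKO libraries showed no such lean.

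The difference is relative to the other shared peaks, because the WT and LKO tables were scaled apart. In the deposited values, before centring, the median difference of the members was 1.22, and that of all pairs was -0.30. When each table was instead put on the scale of its library totals, the members' median became 0.40 and that of all pairs -1.12. Each change of scale moves every pair by the same amount and keeps their order. On the library-total scale 446 of the 9918 pairs (4.50%) stayed above 0. All 300 members were among them by arithmetic, since they have the largest differences, from 1.27 up after centring. The peak score that HOMER gave, a tag count set to a common library size, had a median of 18.3 in WT and 22.3 in LKO at the members, and 39.1 in WT and 19.1 in LKO over all pairs. It was higher in LKO at 248 members (82.7%) and at 4.25% of all pairs. Whether FXR was bound less across most sites in LKO or the immunoprecipitations differed in yield cannot be told apart. These scores come from the same tags as the rule and so are no separate evidence.

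**Figure D2:**
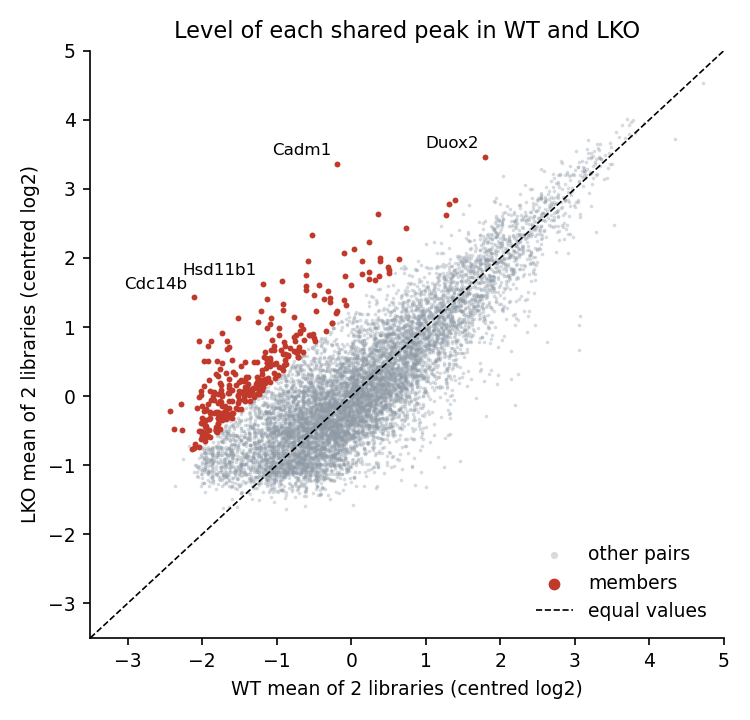
Mean centred log2 value of the 2 LKO libraries against that of the 2 WT libraries for each of 9918 shared peaks, with members in red and the line of equal values dashed. Members fill the upper left edge, most of them left of 0 on the WT axis, with Cadm1 and Duox2 at LKO means of 3.36 and 3.46.

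The 12 members with the largest differences were mostly distal sites. Cadm1, a cell adhesion molecule of the immunoglobulin superfamily, was the nearest gene to the first, an intergenic peak at chr9:47400566-47400770, 129502 bp upstream of the start site. Its centred values were 0.05 and -0.42 in WT and 3.38 and 3.35 in LKO, a difference of 3.55. In WT it thus lay near the middle shared peak, and in LKO it was among the strongest. Other shared peaks at Cadm1 did not share this. The peak 107147 bp upstream had 1.99 and 1.83 in WT and 1.78 and 1.69 in LKO, a difference of -0.18, and the one 97249 bp upstream differed by -0.02.

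Cdc14b, a phosphatase of the cell cycle and DNA repair, carried the second, in intron 4 of 13. Its values were -1.27 and -2.96 in WT and 1.43 and 1.44 in LKO, a difference of 3.55. The second WT value rests on 1.78 estimated tags. Hsd11b1 encodes the enzyme that regenerates active glucocorticoid in liver, and its peak lay in intron 1 of 6, at chr1:193251307-193251511. Its values were -1.17 and -1.20 in WT and 1.68 and 1.58 in LKO, a difference of 2.81 with close replicates on both sides. The other shared peak assigned to Hsd11b1, inside the gene, differed by -0.34. At Fam49a, listed in RefSeq as Cyria and encoding a RAC1-binding protein, the peak lay in intron 2 of 12. It read -0.13 and -0.94 in WT and 2.34 and 2.32 in LKO, a difference of 2.86. Asb2, a substrate adaptor of a ubiquitin ligase, lay 6110 bp from an intergenic peak with -1.14 and -2.95 in WT and 0.87 and 0.74 in LKO, a difference of 2.85. At this peak WT replicate 2 had 1.80 estimated tags.

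The next 7 had differences of 2.69 to 2.53. They were assigned to 1700016K05Rik, Micall2, Gm35978, Lrtm1, Gnat1, Gm5294 and 9930014A18Rik. The assigned name is the nearest start site and often not the gene that holds the peak. The site named for 1700016K05Rik lay in intron 23 of 32 of Ptprm, a receptor tyrosine phosphatase. That named for Lrtm1 lay in intron 12 of 37 of Cacna2d3, a calcium channel subunit, and that named for Gnat1 in intron 6 of 17 of Sema3f, a secreted guidance factor. Of the 175 members annotated to an intron or exon, 59 lay inside a gene other than the assigned one, against 1163 of 4971 over all pairs.

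**Figure D3:**
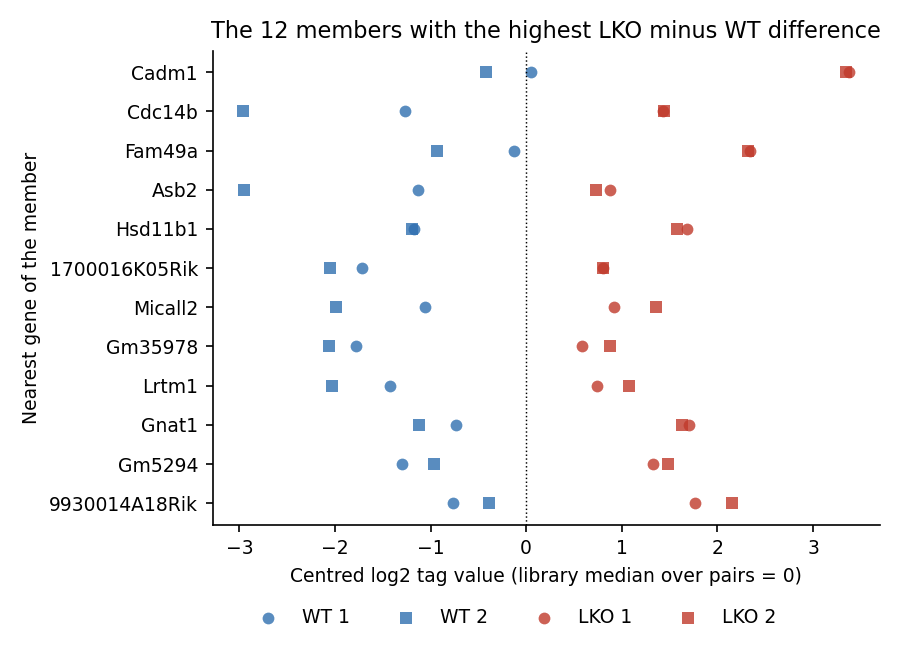
Centred log2 tag values in the 4 libraries for the 12 members with the largest LKO minus WT difference, WT in blue and LKO in red, replicate 1 as circles and replicate 2 as squares. No WT point reaches an LKO point in any row, and the spread between the WT replicates is widest at Cdc14b and Asb2.

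Of the 5 members with the highest LKO mean, Cadm1 (above) was the second and the other 4 had smaller differences. Duox2, the first of them and an oxidase that makes hydrogen peroxide, had an intergenic peak 19204 bp from its start site with 1.73 and 1.85 in WT and 3.43 and 3.50 in LKO. It was thus high in both genotypes, and its difference was 1.67. Slc24a3, a sodium and calcium exchanger, had an intron 1 peak with 1.22 and 1.58 in WT and 2.67 and 3.02 in LKO, a difference of 1.45. The intron 2 peak of Shoc2, a scaffold of RAS signalling, read 0.53 and 0.18 in WT and 2.61 and 2.66 in LKO, a difference of 2.28. A peak in D030047H15Rik went from 1.41 and 1.21 to 2.85 and 2.72. These well covered sites had 148 to 212 estimated tags in WT replicate 1 except Shoc2, with 92.3. In all, 20 members (6.67%) lay above the middle shared peak on the WT mean and 68% on the LKO mean.

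At the limit of the choice the values ran on without a break. The last members in order, at Il12b and Klhl5, and the next pairs in order, at Fendrr and Bin2, all had a difference of 1.27. Fendrr had -0.38 and -1.14 in WT and 0.65 and 0.36 in LKO, much like Klhl5 with -1.26 and -1.21 in WT and 0.08 and -0.01 in LKO.

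Members lay away from promoters. By the HOMER annotation in the files, 163 were in introns (54.3%, 95% Wilson interval 48.7 to 59.9) and 108 were intergenic (36%, 30.8 to 41.6), against 47.1% and 34.2% of all pairs. Only 10 were in promoters (3.33%, 1.82 to 6.03), against 11.6% of all pairs. The same rule reversed gives the 300 pairs relatively lowest in LKO, called the reversed set. Promoters held 4.33% (2.55 to 7.27) of that set. The median distance from the nearest start site was 23272 bp, against 13040 bp over all pairs, and 48 of the 300 (16%) lay beyond 100 kb, against 8.94%. In the reversed set the median distance was 18535 bp and 11.7% lay beyond 100 kb. Lying away from promoters was thus not particular to the members. CpG dinucleotides averaged 2.86 in the 201 bp around the LKO peak centre, against 4.33 over all pairs and 3.23 in the reversed set. The median GC content was 51.7%, close to the 50.7% of all pairs, and 48.3% in the reversed set. Annotated repeats covered 13.3% of members and 14.9% of all pairs. Intervals here and below cover counting error over peaks only. These features were not used by the rule, but each was read on the same 300 peaks and no test is given for it.

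In the order of the difference, the few promoter members ranked from 90 (Cer1) to 277 (Cdh22). Among the promoter members with the largest difference were the peaks at Cer1, Tmem64, Dlc1, Atp6v0a4 and Phf21b, with differences of 1.71 to 1.53. The median over all members was 1.55. Cer1, a secreted antagonist of nodal signalling, lay 626 bp from its peak, which had -1.85 and -1.25 in WT and 0.29 and 0.03 in LKO. At Dlc1, a GTPase-activating protein, the values were -0.25 and -1.93 in WT and 0.60 and 0.49 in LKO, so that much of its difference of 1.63 came from the shallow WT library. At Tmem64, -0.95 and -0.39 in WT stood against 1.04 and 1.01 in LKO.

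Other shared peaks at the same genes were counted too. Of the 300 members, 142 had a gene to which a further, non-member pair was assigned, 311 such pairs in all. Of those, 93 (29.9%) met the direction of the rule, close to the 29.8% of all pairs, and their median difference was 0.03. Another pair lay within 20 kb of 89 members, and 18 of those nearest pairs were members themselves. Of the other 71, 26 met the direction (36.6%) and 26 were below 0, with a median of 0.19 and a range of -2.13 to 1.23.

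Cux2 showed the contrast within a locus. It encodes a homeobox factor that is female-biased in mouse liver, and its member, 10483 bp upstream at chr5:122060232-122060436, read -0.84 and -0.39 in WT and 1.53 and 1.66 in LKO, a difference of 2.21. Its other 3 shared peaks, all in introns, differed by -0.29, -0.12 and 0.25. Sgms1, sphingomyelin synthase, had the most members, 3 of its 6 pairs, with differences of 1.69, 1.49 and 1.36, and its other pairs differed by -0.29 to 0.08. A further 11 genes had 2 members each. Lipc, hepatic lipase, was one of them. Its exon 6 site read 0.27 and 0.22 in WT and 1.84 and 1.77 in LKO, and its intron 1 site -1.37 and -0.41 in WT and 0.79 and 0.44 in LKO. The Lipc promoter pair, 36 bp from the start site, differed by -0.34.

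Alb encodes serum albumin. Its member lay 10706 bp upstream, at chr5:90450062-90450266, with -0.55 and -0.44 in WT and 1.36 and 1.57 in LKO, a difference of 1.96. The other 4 pairs at Alb differed by -0.53, 0.49, 0.90 and 1.07, and the one at -0.53 was the next upstream, 13083 bp from the start site. LKO mice carry albumin regulatory sequence in the Cre transgene and WT mice do not, and reads from the transgene and from the Alb locus cannot be told apart. The input at this site was 1.79 in WT and 1.74 in LKO on the log2 scale, each resting on few tags.

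Few members were assigned to genes of the lists, and most lists are too small to set against the share of all pairs. Over 12 gene lists, 481 pairs were assigned to listed genes and 9 of them were members (1.87%), against 3.02% of all pairs. Of 56 pairs at genes of bile acid synthesis, transport and feedback, 1 was a member. This was Slc51a, a subunit of the basolateral bile acid exporter, whose intron 2 peak had -1.57 and -1.72 in WT and -0.69 and 0.13 in LKO. Cholesterol synthesis and lipoprotein genes had 2 members of 64 pairs, both at Lipc. Fatty acid oxidation and PPAR-alpha genes had 1 of 36, at Cpt1a, the carnitine acyltransferase of the mitochondrial outer membrane, with -2.71 and -1.11 in WT and -0.55 and -0.10 in LKO. Growth hormone and sex-biased liver genes had 2 of 36, at Cux2 and at Cyp3a16, a female-biased cytochrome P450 with -1.92 and -2.08 in WT and 0.01 and -0.65 in LKO. Plasma proteins, coagulation and complement had 2 of 60, at Alb and at Itih4, an inter-alpha-trypsin inhibitor chain with -1.27 and -2.41 in WT and 0.13 and 0.00 in LKO. Genes of stellate, endothelial and biliary cells had 1 of 7, at Reln, a secreted matrix protein, with -1.54 and -2.04 in WT and -0.46 and -0.18 in LKO. No member was among the 75 pairs of nuclear receptor genes, the 65 of glucose metabolism and insulin signalling, the 36 of fatty acid and triglyceride synthesis, the 36 of drug and steroid P450 and conjugation, the 33 of the circadian clock or the 6 of immune cell genes. Glucose genes had a median difference of -0.33 over their 65 pairs.

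The IR1, the element of FXR with RXR, was somewhat more frequent at members. With 2 mismatches or fewer of the 12 scored bases within 100 bp of the LKO peak centre, on both strands, it was in 72 members (24%, 95% Wilson interval 19.5 to 29.1), against 16.8% (16.0 to 17.5) of all pairs. Windows of the same length 2 kb upstream held it in 1% of members and 1.04% of all pairs. With 1 mismatch or none the share was 6.67% in members and 3.68% in all pairs, and no member had an exact copy against 32 of all 9918 pairs. IR1-bearing pairs were stronger in every library, with medians of 0.35 and 0.35 in WT and 0.48 and 0.48 in LKO, against -0.05 and -0.05 in WT and -0.08 and -0.08 in LKO for pairs without it. Within the members the IR1 share was 31% (22.8 to 40.6) in the first 100 by difference, 25% (17.5 to 34.3) in the next 100 and 16% (10.1 to 24.4) in the last 100. Over all pairs in the order of the difference it was 22.8% in the highest twentieth of pairs and 25.6% in the fifth twentieth. From the eleventh twentieth on it ran from 8.27% to 15.9%. The DR1 element, in which AGGTCA repeats after 1 base, was in 8.67% of members and 12.1% of all pairs by the same limits.

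A palindromic E-box was found in more members than the IR1 was, but the counts are unlike. The E-box is shorter and was also more frequent away from the peaks. All 2080 words of 6 letters were counted in the 201 bp windows, each with its reverse strand, and CAGCTG had the largest excess in members over all pairs. It was in 110 members (36.7%, 31.4 to 42.3), against 16.9% (16.2 to 17.7) of all pairs. Windows 2 kb upstream and 2 kb downstream of the members held CAGCTG in 11.7% each and the IR1 in 1% each. CAGCTG was chosen because of its share at the members, so the members' own value is a description. Next in order came AGCTGC, in 34.7% of members and 19.4% of all pairs, ACAGCT (31.3% and 18.3%) and AGCAGC (31.7% and 20.2%). The E-box CATCTG (26% and 15.6%) followed, then CAGAGA (35% and 25.2%), which is no E-box, and CACCTG (27% and 17.8%). CACGTG, the E-box of clock and MYC-type proteins, was in 2.67% of members and 4.78% of all pairs. Any E-box CANNTG, which includes all of these, was in 82.7% and 70.1%. The letters GGGCGG, an SP1-type promoter element, had the largest deficit, 3.67% against 11%, and were in 6% of the reversed set. TTCNNNGAA, a core shared by STAT and BCL6 elements, was in 7.67% of members and 6.54% of all pairs.

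The peaks found in 1 genotype alone played no part in choosing CAGCTG. It was in 28.8% (27.1 to 30.6) of LKO peaks with no WT partner and in 12.6% (11.9 to 13.2) of WT peaks with no LKO partner. Other elements differed the same way in these peaks, with the IR1 in 14.2% (LKO) and 7.16% (WT) and CACCTG in 24.7% and 14.9%. The contrast was thus not particular to CAGCTG. The pairs themselves were the set CAGCTG was chosen from or against, so their values for it are a description too. Cut into twentieths by the difference, the second twentieth, which holds no member, had 25%, and the last had 9.09%, close to the 9.67% of windows 2 kb upstream of all pairs. All of these were called and scored in the same libraries. Members included, the pairs with CAGCTG had a median difference of 0.20 and those without it 0.00. In each of the 4 LKO and WT library pairings the median was higher with it, by 0.18 to 0.22, while between replicates of a genotype it moved by -0.01 (WT) and 0.00 (LKO). The IR1 went the same way, with medians of 0.18 to 0.24 with it and -0.01 to 0.01 without it in those pairings. The direction of the rule was met by 41.3% of pairs with CAGCTG and 44.9% of pairs with an IR1. The shift was thus not particular to CAGCTG. Unlike the IR1, CAGCTG did not mark strong sites. In WT the medians with it were -0.13 and -0.13, against 0.03 and 0.04 without it, and in LKO 0.04 and 0.06, against -0.01 and -0.01.

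**Figure D4:**
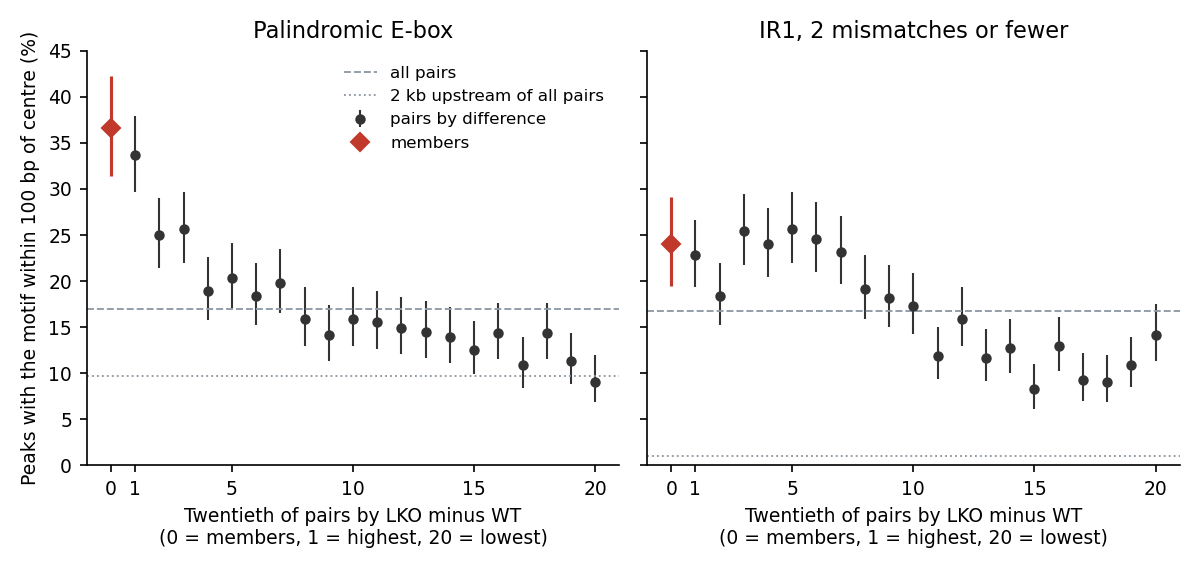
Percent of peaks with the palindromic E-box (left, 36.7% of members) and with an IR1 of 2 mismatches or fewer (right, 24% of members) within 100 bp of the LKO peak centre, for members (red, at 0) and for all pairs in twentieths of the LKO minus WT difference, with 95% Wilson intervals, the share of all pairs dashed and that of windows 2 kb upstream dotted. The E-box share falls from 33.7% to 9.09% along the order, while the IR1 share lies between 18.3% and 25.6% over the first 7 twentieths.

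CAGCTG copies were most frequent at the peak centres, though many lay elsewhere. In steps of 50 bp, they were in 12.7% of members from 50 bp upstream to the centre and in 12% from the centre to 50 bp downstream. The shares were 9.33% and 9.67% at 50 to 100 bp on either side, and 4.67% and 4% at 100 to 150 bp. Farther out they reached 5.33% at 650 to 700 bp upstream and 6% at 350 to 400 bp downstream. All pairs rose at the centre too, to 5.02% and 4.99%, from 3.73% and 3.61% at 100 to 150 bp. The IR1 was tighter, with 8% and 15.3% in the central steps and under 1% in each step from 50 to 300 bp. Members were more frequent among pairs with more copies. They made up 2.31% of pairs with no copy, 5.66% of the 1485 with 1 copy, 12.6% of the 183 with 2 and 3 of the 13 with 3 or more. Both elements were in 25 members. An IR1 was in 22.7% of the 110 members with CAGCTG and in 24.7% of the 190 without it. In all, 157 members (52.3%) had at least one of them, against 31.2% of all pairs, and 143 had neither.

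**Figure D5:**
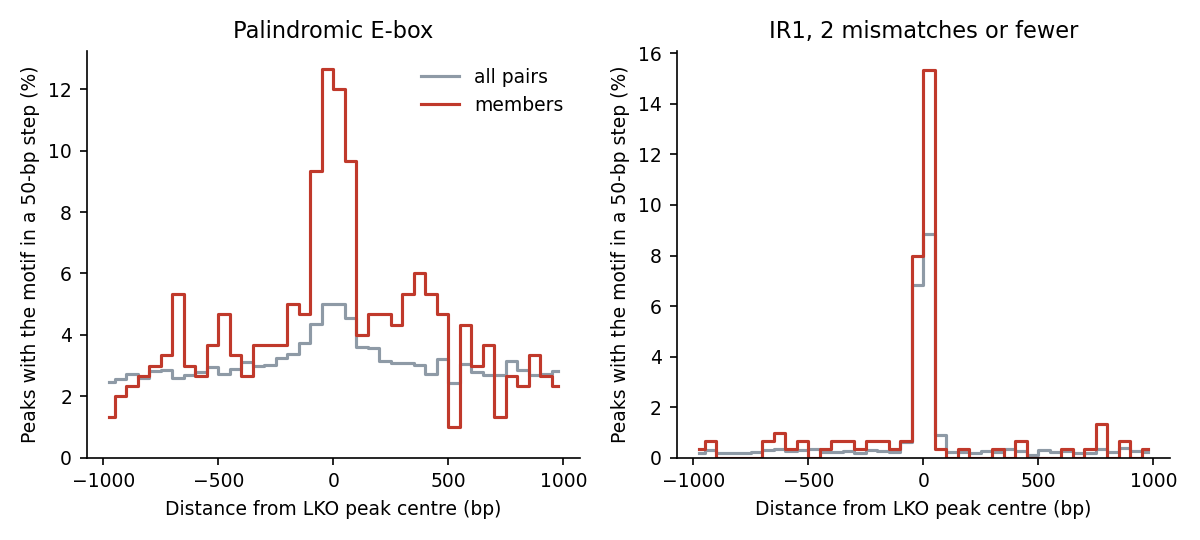
Percent of members (red) and of all pairs (grey) with the palindromic E-box (left) or an IR1 (right) in each 50-bp step from 1000 bp upstream to 1000 bp downstream of the LKO peak centre. In members the E-box rises to 12.7% in the central steps from 4.67% at 100 to 150 bp, and the IR1 reaches 15.3%.

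The E-box share was also read within classes of peaks. Among peaks over 1 kb from a start site, CAGCTG was in 36.9% of members and 17.7% of all pairs. Within the lowest 10% of pairs by WT mean, where 190 of the members lie, it was in 32.6% (26.4 to 39.6) of members and 21.7% (19.2 to 24.3) of all pairs. The 136 members with 5 or more estimated tags in WT replicate 2 held it in 45.6% (37.5 to 54.0), and the 164 with fewer in 29.3% (22.8 to 36.6). All pairs in these classes held it in 16.6% and 20.9%. The same split for the IR1 gave 29.4% (22.4 to 37.6) and 19.5% (14.2 to 26.2) of members and 17.0% and 13.1% of all pairs. WT replicate 2 is one of the values that chose the members, so this split is not independent of the rule.

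The members were also chosen without each library in turn, and the library left out was then read. With WT replicate 2 left out, 193 of the 300 were chosen again. That library then lay under both LKO values at 290 of the new 300 (96.7%), against 72.7% of the 4074 pairs that met the direction without it, and its median there was -1.17. With WT replicate 1 left out, 205 were chosen again, and that library lay under both LKO values at 277 (92.3%), against 71.1%, with a median of -0.96. With LKO replicate 1 or LKO replicate 2 left out, 236 and 234 were chosen again, and the library left out lay above both WT values at 290 (96.7%) and 291 (97%) of 300, against 72.8% and 74.2% of the pairs that met the direction without it. CAGCTG was in 30.3% to 37.7% of these 4 sets. The left-out library shares its genotype, table and scaling with its partner, and the values of a table were fitted together. It is therefore not independent of the choice. The pairs set beside each new 300 include small differences, so the higher shares at the 300 largest are a description only.

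Input signal was low at the members. Estimated input tags did not pass 3.53 in WT or 4.34 in LKO at any of the 300. The median input value was -0.53 in WT and 0.07 in LKO on the log2 scale, each in its own table, against -0.19 and 0.02 over all pairs. Input above the 95th percentile of its own table was found at 1 member in WT (0.33%) and 13 in LKO (4.33%), against 7.32% and 5.88% of all pairs. In the reversed set, relatively lowest in LKO, these shares were 10% in WT and 0.67% in LKO. The median input of that set was 1.07 in WT and -0.10 in LKO. Input thus moved with the ChIP values that chose either set, and it is no separate check on them. The members with the largest LKO minus WT input were Fhdc1, 2700097O09Rik and Slc24a3, with -0.46, -0.57 and -0.12 in WT and 3.36, 2.97 and 3.41 in LKO. When the input of its own table was taken from each ChIP value before choosing, only 32 of the 300 were chosen again and CAGCTG was in 21.7% of that set. The input values rest on a handful of tags per site and move with the ChIP values, so this subtraction is no independent check.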

How the data were processed

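FXR ChIP and input libraries of WT and LKO liver were analysed from the peak tables that the authors deposited, 1 per genotype. Per the study's methods and the submitters' processing notes, 100-bp single-end reads were aligned to mm10 with Bowtie 1.2, keeping unique reads and 1 tag per position, and processed with HOMER 4.10. Per the file headers, peak calling joined both replicates and used the matching input, and those listed passed DESeq2 at a false discovery rate of 0.05 and a log2 fold of 1. The deposited log2 tag values come from that run, made separately for each table and scaled to library totals. They are not whole tags on a linear scale and were taken to be regularized log2 values, which draw low counts towards the mean of a peak, so that tags are estimates. The peak score is a deposited signal in normalized tags, and the focus ratio a deposited fraction. The tables also hold the authors' log2 fold change, p-value and adjusted p-value of ChIP against input from DESeq2, which were not used.

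Pairing, median centring and choice were done in Python 3.11.15 with pandas 2.3.3. Estimated tags are 2 to the power of the value, times the library total, over the mean total of the table. All 20040 WT and 12495 LKO peaks lay inside GRCm38.p6, read with pysam 0.24.0. Intervals are 95% Wilson. Host genes came from RefSeq transcripts, and all 192 member transcripts matched. Methods were tested on simulated data. The simulated libraries had equal noise, so the low depth of WT replicate 2 was not part of that test. The members and the gene lists were chosen with earlier results of these data known. Named are the 12 largest differences, 6 promoter members (1 of them is not reported here), up to 4 members per gene list, 8 of the 20 members with the fewest IR1 mismatches, taken by difference, the limit of the choice, the 5 highest LKO means, genes with most members and 3 members by input. Other peaks shown whole, and CAGCTG, were chosen after their values were seen. Sequence of chromosome 18 and of UTRs was counted and is not printed.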

Additional observations from a re-analysis of the deposited data

How the results depend on the processing

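No test was made. The members' median difference kept its sign under every alternative run, which the choice of members on that difference largely fixes. The median of all pairs went from 0.03 to -0.30 before centring and -1.12 on the library-total scale. The alternatives on CAGCTG and on a tag minimum were chosen after seeing the data. No paired analysis was possible because no result comes from a test and the WT and LKO tables were fitted apart. Of the 300 members, 218 to 298 were chosen again with other centring, scaling, overlap, an input limit or residuals from a line on WT, and autosomes alone lost the 1 on chromosome X. With input subtracted 32 were, among pairs at or above the median WT value 21, and among pairs with 5 or more estimated tags in WT replicate 2, 136. Without a library 193 (WT replicate 2) to 236 were. The members' median difference was 0.40 on the library-total scale and 1.40 to 1.79 without a library. The share of pairs meeting the direction was 12.9% with no centring, 25.9% with mean centring, 32.1% with division by the SD and 40.2% to 42.0% without a library. The IR1 share was 6.67% with 1 mismatch or none and 0% exact, 22% to 24% without a library, and 23.7% to 26.3% under the other alternatives. The promoter share stayed between 3% and 5%. Input over the limit in either table was at 4.67% of members, and at 14% with the 90th percentile. The median WT rank percentile was 10.1 on WT replicate 1 alone. CAGCTG was in 21.7% with input subtracted, 28.7% among pairs at or above the median WT value, and 30.3% (WT replicate 1) to 37.7% without a library. The causes of these changes were not tested. The depth of WT replicate 2 limits its own values and the WT mean at the members.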
